A study of Homo sapiens with 4 samples.

Results

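The regions described here are promoter sites at which c-MYC chromatin immunoprecipitation followed by sequencing (ChIP-seq) gave a peak in trametinib-treated pancreatic cancer cells and no overlapping peak in vehicle-treated cells. They were chosen by their measured peak calls. A trametinib peak was taken if its summit, the base of deepest coverage, lay at most 1 kb from the start (TSS, transcription start site) of any protein-coding transcript and if no DMSO c-MYC peak shared a base with it. These criteria were met by 828 of the 2124 trametinib promoter peaks, a background of 39.0% that the selection itself fixes, out of 5431 trametinib peaks and 28327 peaks in the 4 lists. The cells were MIA PaCa-2, an established human pancreatic ductal adenocarcinoma (PDAC) line, given DMSO, 100 nM AMG510 or 10 nM trametinib, an inhibitor of MEK, for 8 h. Each treatment had 1 c-MYC library, and the DMSO-treated cells also had 1 library made with non-specific immunoglobulin (IgG). No group was replicated, so every difference is between single libraries of 1 line, and all intervals are 95% intervals that cover counting error only.

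MYC is a transcription factor that pairs with MAX and contacts DNA at E-boxes, whose preferred form is CACGTG. In proliferating cells it is also found at many active promoters that lack this sequence, most of them rich in CpG, and its long-known targets include genes for ribosomes, translation and nucleotide synthesis. MEK lies in the MAPK cascade, which in PDAC cells sustains MYC protein, and the study used the ChIP-seq libraries to ask how blocking that cascade changes where c-MYC is found.

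An E-box within 100 bp of the summit was present in 56 of the 828 peaks. The stretches below surround it in the 6 peaks of largest fold enrichment among those at genes with no DMSO promoter peak, and in the only one at a cytosolic ribosomal protein gene. They are shown because they put the MYC sequence near the summit of a peak that was not called in DMSO. At TMEM19 the E-box straddles the edge of the called peak. All are the plus strand of GRCh38, and capitals mark the E-box.
COX10 (chr17:14069688-14069717): ttctcttattacCACGTGcgaggccgtggt
MCFD2 (chr2:46915916-46915945): ctcgcgtgagtcCACGTGtaatcggcccgg
TMEM19 (chr12:71686030-71686059): gcagtgcctgccCACGTGagctaggcgaca
NRL (chr14:24115006-24115035): cccccggcgcacCACGTGggcgtgaggcga
PUM3 (chr9:2844037-2844066): acactcaccgcaCACGTGggaccgagacag
DCK (chr4:70993521-70993550): cgccccggccttCACGTGacctggcgtgcg
RPL10 (chrX:154398962-154398991): tggatttagtgcCACGTGcccgaaagtctt
The E-box centre lay 44 bp from the summit at COX10, 26 bp at PUM3 and 20 bp at RPL10, and between 52 and 96 bp away at the other 4 genes. Over all 59 E-boxes in the 828 windows, the base 5′ of the E-box was C on one strand and G on the other in 14, the most frequent pair. The other 772 windows, 93.2% of the set, held no CACGTG. The window at RTTN is such a case, the upstream peak of largest fold enrichment without an E-box, and is printed with its 19 CpG sites in capitals.
RTTN (chr18:70205813-70206013): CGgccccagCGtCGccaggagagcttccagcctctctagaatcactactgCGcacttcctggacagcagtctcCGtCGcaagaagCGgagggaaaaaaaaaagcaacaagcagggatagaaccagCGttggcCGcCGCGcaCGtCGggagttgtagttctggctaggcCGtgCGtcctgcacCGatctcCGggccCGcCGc
Its 201 bases were 62.2% G and C, with 0.98 times the CpG expected from base composition.

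Most of these peaks were modest in height. The pileup at the summit had a median of 13 tags (quartiles 11 and 15) and ranged from 8 to 31, and fold enrichment over the local background had a median of 4.42 (3.97 to 4.95) with a maximum of 8.12. At most 12 tags supported 367 of the peaks and at most 15 supported 687, whereas 20 reached 20 tags or more. The 1296 trametinib promoter peaks that a DMSO peak did overlap had a median of 16 tags (13 to 19) and a fold of 4.97 (4.32 to 5.84). The regions without a DMSO peak therefore sat lower in the trametinib list, above a median of 45% of its peaks against 68.3%. At the genome-wide background, 8 tags were enough for a call both in trametinib and in DMSO. Counting error alone puts 13 tags between 6.92 and 22.2, and for 609 of the 828 peaks (73.6%) the lower bound was under 8 tags, in contrast to 37.3% of the overlapped peaks. The DMSO coverage at these sites was not analysed here, and a site with no DMSO peak may hold tags below the calling limit. The number of tags that entered calling was similar in the DMSO (2.4e+07) and trametinib (2.48e+07) libraries.

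**Figure D1:**
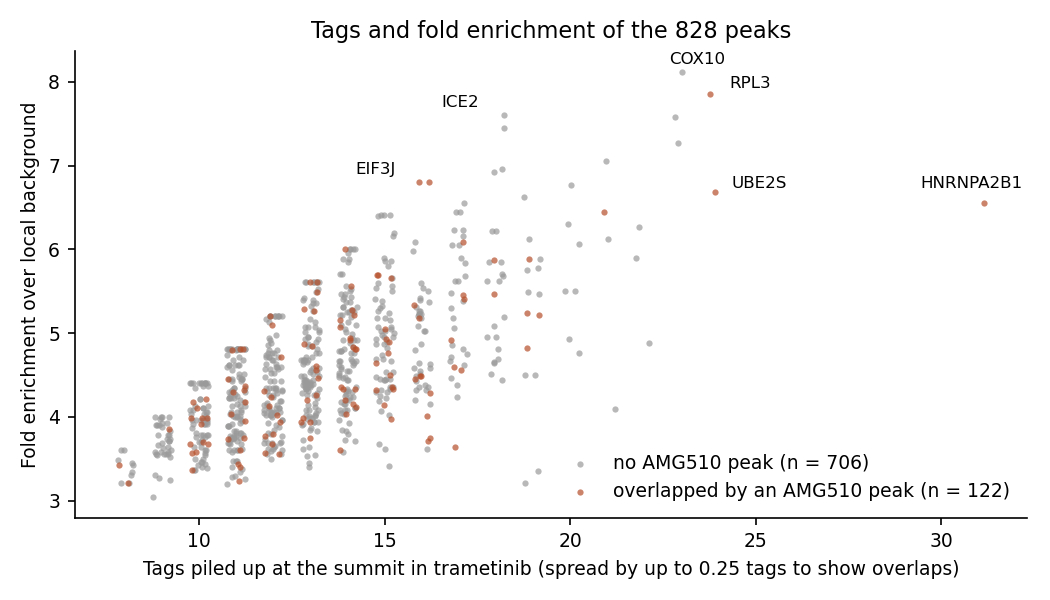
Tags at the summit (x axis, moved sideways by at most 0.25 tags so that points do not hide each other) and fold enrichment over the local background (y axis) of each of the 828 peaks, coloured by overlap with an AMG510 peak. Most points lie at 8 to 15 tags, and HNRNPA2B1, with 31 tags, and COX10, with a fold of 8.12, stand apart from the cloud.

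The largest fold enrichment was at COX10, which encodes an assembly factor of cytochrome c oxidase that makes its heme. The peak (chr17:14069531-14069811, intron 1, summit 155 bp inside the gene) held 23 tags (14.6 to 34.5) with a fold of 8.12. The nearest DMSO peak was 26966 bp away and the nearest AMG510 peak 49424 bp. The COX10 promoter thus had a peak in the trametinib list alone.

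RPL3, for a protein of the large ribosomal subunit, came second with 24 tags (15.4 to 35.7) and a fold of 7.85 in its first intron (chr22:39319315-39319656). Here the DMSO list did hold a peak at the same promoter, from 39319105 to 39319284, with 15 tags and a fold of 4.29, and only 30 bp separated it from the trametinib peak. The summits were 230 bp apart. An AMG510 peak with 27 tags and a fold of 7.32 overlapped the trametinib peak, its summit 46 bp away. The 2 drug summits lay close together. The selection itself requires the trametinib peak to share no base with the DMSO peak, so its distance from the DMSO summit is a description.

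The next 6 by fold enrichment had neither a DMSO nor an AMG510 peak within 8 kb. At ICE2, whose product belongs to a complex for small nuclear RNA transcription, 18 tags gave a fold of 7.61. RTTN, which encodes a centriole protein, had 23 tags and a fold of 7.58 at 226 bp upstream of its TSS. ZKSCAN2, a zinc finger gene, had 18 tags and a fold of 7.46. The nearest DMSO peaks of these 3 genes lay between 56471 and 386331 bp away. NFE2L1, for a transcription factor that induces proteasome genes, had 23 tags and a fold of 7.28. TTC28 had 21 tags (fold 7.05) and KDM4B, for a histone demethylase, 18 tags (fold 6.97). The KDM4B summit was 115 bp from the TSS of a shorter transcript and 47327 bp inside the gene by its canonical transcript, in intron 2.

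Among genes with no DMSO promoter peak, the other E-box peaks printed above were lower. MCFD2, whose product helps to carry cargo from the endoplasmic reticulum, held 19 tags with a fold of 6.62. TMEM19 had 15 tags (fold 6.41) and NRL, best known as a photoreceptor transcription factor, 16 tags (fold 6.09). PUM3, for an RNA-binding protein of the nucleolus, and DCK, for the kinase that phosphorylates deoxycytidine, each had 14 tags (7.65 to 23.5), with folds of 6.01 and 5.96. The counting intervals of these 5 pileups overlap, so their order is not resolved.

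How many of the regions marked a promoter that c-MYC already occupied in DMSO was examined next. A DMSO promoter peak was present at the same gene for 253 of the 828 peaks (30.6%, interval 27.5 to 33.8), and at any gene whose TSS lay within 1 kb for 258 (31.2%). Of all 19663 protein-coding genes, 24.2% had a DMSO promoter peak. The remaining 575 peaks lay at genes without one. Counted by gene, the 828 peaks were assigned to 813 genes (4.13% of all), 15 of which had 2 such peaks, and 44 genes also carried another trametinib promoter peak that a DMSO peak overlapped. Since the DMSO list took part in the selection, these shares are descriptions.

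The gap to the nearest DMSO peak divided the set clearly. It was below 1 kb for 207 peaks (25%), and 88 of these were within 200 bp and 28 within 50 bp. A further 65 had a gap of 1 to 10 kb, 354 of 10 to 100 kb and 202 of 100 kb or more. Of the 207 close peaks, 201 belonged to a gene with a DMSO promoter peak, whereas the other 52 peaks at such genes had their nearest DMSO peak over 1 kb away, at another start site or beyond. For the close peaks the DMSO and trametinib summits were a median of 565 bp apart (347.5 to 747.5), a separation that the selection itself requires. The DMSO neighbour had a median of 16 tags and a fold of 4.66.

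**Figure D2:**
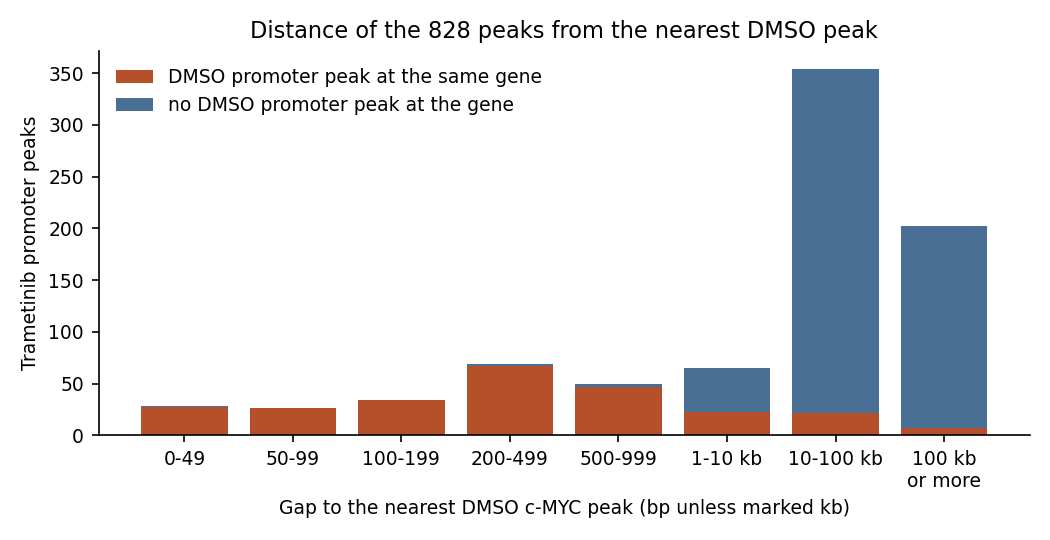
Number of the 828 peaks (y axis) by the gap in bp or kb to the nearest DMSO c-MYC peak (x axis, bins of unequal width), with bars split by whether the assigned gene has a DMSO promoter peak. Bins below 1 kb hold 207 peaks, nearly all at genes with a DMSO promoter peak, and the bin of 10 to 100 kb holds 354, of which 332 are at genes without one.

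Values on both sides of the selection's limits were as follows. The trametinib peak at CTIF touched a DMSO peak without sharing a base, and those at LONRF2 and SERINC5 were 2 bp from one, with 12, 13 and 16 tags and folds of 3.92, 4.27 and 4.65. The peaks at AMZ2, MRRF and BMP8B, left out because they shared 1, 2 and 4 bases with a DMSO peak, had 16, 18 and 14 tags and folds of 5.57, 5.27 and 5.57. The tags overlapped between these 3 peaks on each side, and the folds were lower inside. On the distance criterion, the summits at FASN (980 bp upstream of a TSS) and ABCA7 (973 bp downstream) were the farthest inside, with 20 and 15 tags. Those at HELZ2 (1002 bp) and EFNA4 (1019 bp) were just outside, with 10 and 15 tags.

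After RPL3, the peaks of largest fold enrichment at genes with a DMSO promoter peak were at RPS26, HNRNPA2B1 and SEC31A. RPS26, for a protein of the small ribosomal subunit, had 17 tags (fold 6.56) in its 5′ untranslated region (UTR), 155 bp from a DMSO peak of 15 tags. HNRNPA2B1, for an RNA-binding protein of splicing, had the highest pileup of the set, 31 tags (21.1 to 44), in intron 1, and its DMSO peak of 25 tags lay 1041 bp away. SEC31A, for a coat protein of vesicles leaving the endoplasmic reticulum, had 15 tags (fold 6.41), and its nearest DMSO peak was 8841 bp away. Tags in the 2 libraries come from different sites at each of these genes and do not measure a change at 1 site.

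Sequence was not used in the selection and was compared between the 2 classes of trametinib promoter peaks. The E-box share was 6.76% (56 of 828) where DMSO had no peak and 24.1% (312 of 1296) where it had one, a difference of −17.3 percentage points (Newcombe interval −20.2 to −14.4). In windows 1 kb to either side of the 828 summits the share was 2.60%, lower by more than counting error (difference 4.17 points, 2.41 to 6.20). Promoters with no c-MYC promoter peak in any list were compared in windows centred on the canonical TSS, not on a summit. All 13441 such TSS windows held an E-box in 4.40%, less than the 828 peaks (difference 2.36 points, 0.80 to 4.31). Among the 7078 of them that were CpG-rich, with at least 55% GC and at least 0.65 of the expected CpG, the share was 5.54%. The 617 CpG-rich peaks of the set had 6.48%, a difference of 0.94 points with an interval that includes 0 (−0.83 to 3.23). This interval overlaps that for all windows. Windows that were not CpG-rich were not compared on their own, so a dependence on base composition was not tested. AMG510 promoter peaks with no DMSO peak, the most similar set, had an E-box in 6.21% of 1257, a difference of 0.56 points (−1.56 to 2.82). DMSO promoter peaks with no trametinib peak stood between, at 13.5% of 3338 (difference −6.69 points, −8.62 to −4.47). An E-box was thus found less often under these peaks than under trametinib promoter peaks shared with DMSO or DMSO promoter peaks without a trametinib peak.

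**Figure D3:**
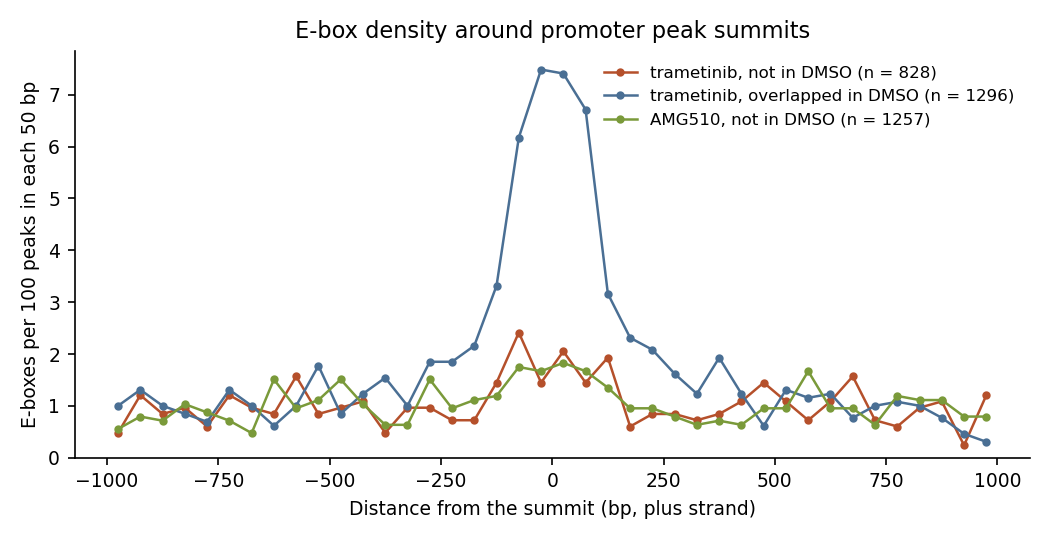
E-boxes per 100 peaks in each 50 bp (y axis) by distance from the summit in bp (x axis) for trametinib promoter peaks without and with an overlapping DMSO peak and for AMG510 promoter peaks without one. The overlapped peaks reach 7.48 per 100 next to the summit, whereas the 828 peaks stay between 1.45 and 2.42 in the 4 central bins.

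Because the 2 classes differed in fold enrichment, the comparison was repeated among peaks of more similar strength. All trametinib promoter peaks were divided into 4 equal bins of fold enrichment. In the weakest bin, 5.50% of the peaks not in DMSO and 11.6% of the overlapped ones had an E-box. In the strongest bin the shares were 11.7% (11 of 94, interval 6.66 to 19.8) and 30.5% (26.4 to 35.0). Folds in that bin reached 8.12 for the peaks not in DMSO and 13.5 for the overlapped ones, so strength still differed there. Weighted over the bins, the difference was −14.0 points (−16.9 to −11.1). Within the set, the share was 8.91% above a fold of 5 and 6.07% at or below it, a difference of 2.84 points whose interval includes 0 (−1.02 to 7.84). Peaks at genes with and without a DMSO promoter peak also could not be separated, at 8.30% and 6.09% (difference 2.21 points, −1.39 to 6.60).

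**Figure D4:**
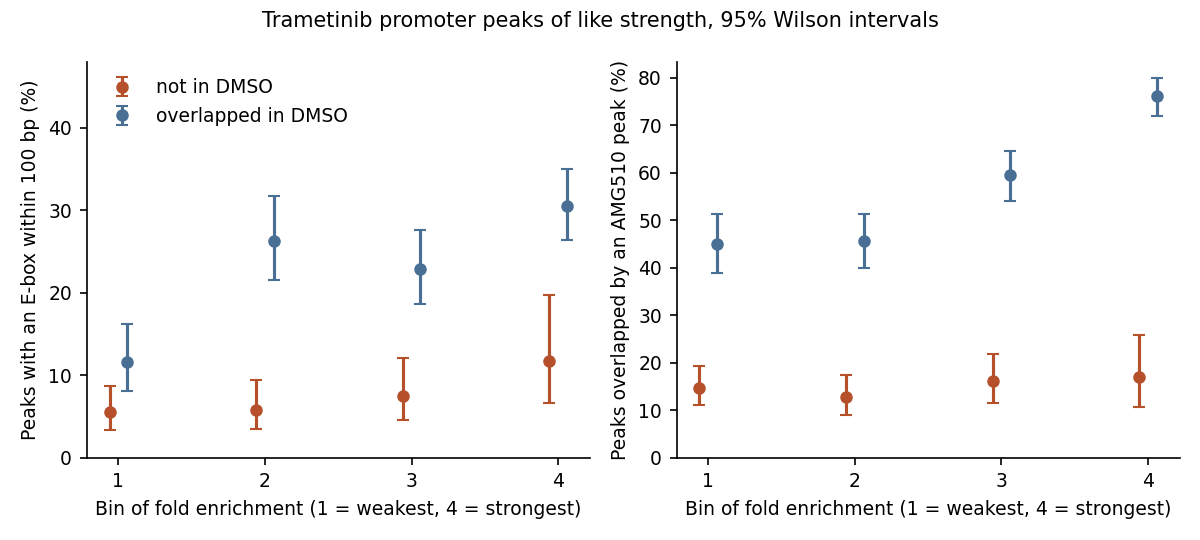
Share in percent (y axes) of trametinib promoter peaks with an E-box within 100 bp of the summit (left) and overlapped by an AMG510 peak (right), by bin of fold enrichment (x axes), for peaks without and with an overlapping DMSO peak; points are shares and bars 95% Wilson intervals. In each bin the peaks not in DMSO have the lower share in both panels, and the E-box intervals overlap only in the weakest bin.

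Other short sequences were counted in the same 201-bp windows on both strands, 10 in all with the E-box. The related CACGCG was present in 13.4% of the 828 windows and 27.9% of the overlapped ones (difference −14.4 points, −17.8 to −11.0), beside 10.8% of all canonical TSS windows and 13.5% of the CpG-rich ones with no c-MYC promoter peak. The GC box GGGCGG, bound by SP and KLF factors, was in 55.2% and 61.3% (−6.07 points, −10.4 to −1.78), beside 54.0% of all TSS windows and 71.4% of the CpG-rich ones. CCAAT, bound by NF-Y, went the other way with 11.4% and 8.64% (2.71 points, 0.13 to 5.44), and so did TATAAA, the core of the TATA box, with 2.90% (24 peaks) and 0.85% (2.05 points, 0.90 to 3.48). All TSS windows held these at 25.4% and 6.64%, and the CpG-rich ones at 24.9% and 2.67%. For CCGGAAG (ETS factors, 5.68%), GCATGCG (NRF1, 1.93%), AAGATGG (YY1, 3.99%), TGACGTCA (CRE, 0.36%) and TGAGTCA (AP-1, 1.21%) the interval of the difference included 0. The shares of these 5 among all TSS windows were 11.3, 3.54, 5.32, 2.05 and 2.12%, and among the CpG-rich ones 14.5, 4.65, 5.68, 2.57 and 0.88%. The 10 intervals were not adjusted for their number.

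Base composition also separated the classes slightly. GC content within 100 bp of the summit had a median of 69.7% (62.2 to 75.1) where DMSO had no peak and 72.4% (66.7 to 77.1) where it had one. Windows with at least 55% GC and a CpG ratio of at least 0.65 made up 74.5% and 87.3% (difference −12.8 points, −16.3 to −9.39). Summits were a median of 189 bp (91.5 to 370) from the nearest TSS, and 138 bp (70 to 289) for the overlapped peaks. By the canonical transcript of the assigned gene, 299 of the 828 summits lay in intron 1 and 274 upstream of the gene. A further 111 were in the 5′ UTR, 100 in coding exons and 41 in later introns, 1 in a 3′ UTR and 2 elsewhere. Genes starting in opposite directions within 1 kb surrounded 11.7% of the summits and 13% of the overlapped ones (difference −1.33 points, −4.13 to 1.61).

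Presence in the AMG510 list was then read as a second drug library that the selection had not used. An AMG510 peak overlapped 122 of the 828 peaks, or 14.7% (12.5 to 17.3). Of all trametinib peaks, only 39.1% of which lay at promoters, 22.2% had an AMG510 peak. The share was 59.3% (56.6 to 62.0) for the overlapped class, a difference of −44.6 points (−48.1 to −40.9). Trametinib peaks outside promoters with no DMSO peak had an AMG510 peak in 2.18%, a difference of 12.6 points (10.2 to 15.2). Peaks of both drugs that lack a DMSO peak were set against the same DMSO library, so these shares describe presence in the AMG510 list and do not count as separate support. The share changed little with strength, from 14.8% in the weakest bin of fold enrichment to 17% in the strongest. The overlapped class went from 45 to 76.1%, with folds of up to 13.5 in its strongest bin against 8.12. The 122 peaks held an E-box in 4.10% and the other 706 in 7.22% (difference −3.13 points, −6.30 to 2.28), so no difference was detectable. At the 122 sites the AMG510 peak had a median of 13 tags and a fold of 4.52, with summits a median of 87 bp apart. Their windows met the GC and CpG limits above in 86.1%, compared with 72.5% of the other 706.

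After RPL3, the peaks of largest fold enrichment with an AMG510 peak were at EIF3J, TMEM222, UBE2S, HNRNPA2B1 and RABGGTB. EIF3J, for a subunit of the translation initiation factor eIF3, had 16 tags in trametinib and 13 in AMG510. TMEM222 had 16 and 8 tags. UBE2S, for a ubiquitin-conjugating enzyme that works with the anaphase-promoting complex, had 24 and 19. At these 3 genes the DMSO list held no promoter peak, and the nearest DMSO peak was at least 23002 bp away. HNRNPA2B1 had 31 and 20 tags, and RABGGTB, for a subunit of the enzyme that attaches lipid anchors to Rab proteins, had 21 and 19. The pileups are from libraries with different fragment extensions and are not a test between the drugs.

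An IgG peak overlapped 3 of the 828 peaks (0.36%) and 1 of the 1296 overlapped peaks (0.077%). The difference was 0.29 points (−0.15 to 0.99). Among all trametinib peaks the share was 3.39%, but only 39.1% of those lay at promoters. Of the IgG peaks themselves only 3.67% lay at promoters, so the 3.39% is not a like background for promoter peaks. The 3 peaks were at EXO1, H4C13 and MTMR12, named here after their values were seen, with 17, 13 and 16 tags. IgG signal at a called level was thus rare at trametinib promoter peaks of either class.

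Gene lists drawn up by symbol were used to describe which promoters the set contains, beside the 4.13% of all protein-coding genes. Cytosolic ribosomal protein genes were near that level with 4 of 89. RPL3 and RPS26 are described above. RPS21 had 14 tags in trametinib and 15 in AMG510, with no DMSO promoter peak, and RPL10 had 11 tags (5.49 to 19.7), 580 bp from a DMSO peak. In this list 71 of 89 genes had a DMSO promoter peak and 63 a trametinib promoter peak, so most of its trametinib peaks were overlapped in DMSO. Of the mitochondrial ribosomal protein genes, 4 of 78 were assigned a peak (MRPL33, MRPL50, MRPL58 and MRPS27), with 12 to 15 tags. None of 10 well-known MYC target genes had one, and 8 of them had a trametinib promoter peak. With 10 genes this list is too short to set against the 4.13%.

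Translation factors, splicing factors, histones and the proteasome were each assigned peaks at 10% or more of their genes. Translation factors had 8 of 70, namely EIF1, EIF2A, EIF3A, EIF3J, EIF4EBP1, EIF4H, EIF5 and EIF6, of which 4 also had a DMSO promoter peak and 3 an AMG510 peak. The most tags among them were 22, at EIF4H, whose product stimulates the initiation helicase, 208 bp from a DMSO peak of 30 tags. Only EIF4EBP1, for a repressor of cap-dependent translation, had an E-box. Splicing factors had 7 of 59 (HNRNPA2B1, HNRNPF, HNRNPH3, HNRNPUL2, SF3A3, SRSF3 and SRSF5), 4 with an AMG510 peak and none with an E-box. In the whole set, 14.7% of peaks had an AMG510 peak, 93.2% no E-box and 30.6% a DMSO promoter peak at the gene. A DMSO promoter peak was present at 50% and 55.9% of the genes of these 2 lists. Trametinib promoter peaks of either class were also frequent in them, at 37.1% and 44.1% of genes beside 11.8% of all genes. For histones and the proteasome the shares were 17.5% and 18%. Whether the counts above 4.13% in any of these lists are particular to peaks without a DMSO peak was not tested.

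Peaks at the histone and proteasome genes were few and are given beside the whole set, in which 69.4% of peaks lay at genes with no DMSO promoter peak, 85.3% had no AMG510 peak and 93.2% no E-box. Of 80 histone genes 9 were assigned a peak, all in the clusters on chromosome 6, with 10 to 18 tags, and 8 of the 9 had no DMSO promoter peak. Summits lay in coding exons at 7 of them (H2AC4, H2BC15, H3C11, H3C12, H4C4, H4C8 and H4C13) and past the end of the gene by the canonical transcript at H2AC15 and H2BC14. Histone genes include close copies, and how reads mapped among them was not measured here, beyond the authors' filter on mapping quality. H4C13 also overlapped an IgG peak, and H4C8 an AMG510 peak. TATAAA was present at 2 of the 9 and CCAAT at 1. Of 50 proteasome genes 5 were assigned a peak, PSMD6 (15 tags), PSMD8 (14) and PSMF1 (10), and the assembly chaperones PSMG1 (11) and PSMG2 (18). None of the 5 had a DMSO promoter peak, an AMG510 peak or an E-box, and the nearest DMSO peaks were 28420 to 159513 bp away.

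**Figure D5:**
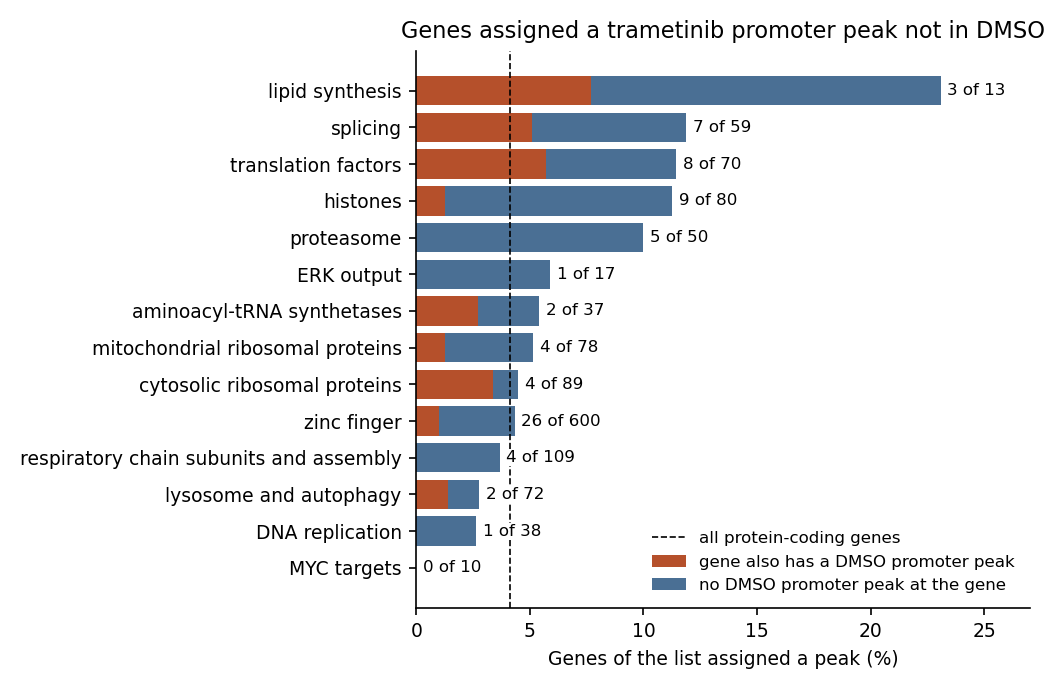
Percent of the genes of each list assigned a trametinib promoter peak not in DMSO (x axis), split by whether the gene also has a DMSO promoter peak, with the number of genes beside each bar and the 4.13% of all protein-coding genes as a dashed line. Splicing (7 of 59), translation factors (8 of 70), histones (9 of 80) and proteasome (5 of 50) lie to the right of the line, each by a few genes, and the lipid synthesis list, with 13 genes, is too short to set against it.

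The lipid synthesis genes that the study examined were represented by 3 of 13, a list the study chose itself and too short to set against the background. FASN, for fatty acid synthase, had 20 tags (12.2 to 30.9) with a fold of 4.77 at 209 bp from a DMSO peak of 32 tags that covers the canonical start. TECR, for the last step of fatty acid elongation, had 15 tags (fold 4.32) in its 5′ UTR, and SQLE, for squalene epoxidase of cholesterol synthesis, 10 tags (fold 4.13) upstream of the gene. Neither of the latter genes had a DMSO promoter peak. None of the 3 peaks held an E-box or overlapped an AMG510 peak. Of the 828 peaks, 93.2% held no E-box and 85.3% had no AMG510 peak.

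The other lists were close to or below the background. In the whole set, 14.7% of peaks had an AMG510 peak, 6.76% an E-box and 30.6% a DMSO promoter peak at the gene. The few peaks of each list were not tested against these shares. Zinc finger genes had 26 of 600 with 27 peaks, none of them with an E-box and 8 with an AMG510 peak, and ZKSCAN2 was the strongest. Respiratory chain genes had 4 of 109 (COX10, ATP5MC3, COX7C and ATP5MJ), none with a DMSO promoter peak. Aminoacyl-tRNA synthetases had 2 of 37, AARS1 with 11 tags and VARS1 with 18, and both overlapped an AMG510 peak. DNA replication genes had 1 of 38 (RFC3). Lysosome and autophagy genes had 2 of 72, ATP6V1C2, for a subunit of the proton pump, and TFEB, for the transcription factor that induces lysosomal genes, the latter with 11 tags in trametinib, 11 in AMG510 and a DMSO peak 107 bp away. Of 17 genes that report ERK output, SPRED2, for an inhibitor of the cascade, had 13 tags (fold 5.39) at a start site deep inside the gene.

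An AMG510 promoter peak was present at the same gene, overlapping or not, for 240 of the 828 peaks (29.0%, 26.0 to 32.2), beside 15.3% of all protein-coding genes. It was 46.2% at genes with a DMSO promoter peak and 21.4% (18.2 to 24.9) at genes without one.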

How the data were processed

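The series was c-MYC ChIP-seq in MIA PaCa-2 with 1 library per group, grouped by sample title. Per their methods, the authors trimmed reads with Trimmomatic 0.39, aligned the pairs to GRCh38 with BWA 0.7.17, filtered on mapping quality and duplicates (SAMtools 1.9, Picard) and called peaks with MACS2 2.2.7.1, 1 list for each library, at q = 0.05. Per peak, the deposited values are a score, a ratio of pileup to background called the fold enrichment, −log10 p-values and −log10 q-values, and the summit offset in bp. The pileup and local background were recovered from the deposited fold and −log10 p-value, and were whole numbers of tags for 100% of peaks in each list. The recovery was tested on simulated data. A paired alignment can give more than 1 tag, so counting intervals are too narrow. The depth recovered was 2.27e+07 tags for IgG, 2.4e+07 for DMSO, 2.43e+07 for AMG510 and 2.48e+07 for trametinib.

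Promoters were taken from GENCODE 44. Genes were assigned by the nearest TSS. The 6 trametinib promoter peaks on the mitochondrial chromosome were left out. Shared means at least 1 bp in common. Shares have Wilson intervals, differences of shares Newcombe intervals, and pileups exact Poisson intervals (Python 3.11.15, scipy 1.17.1, pysam 0.24.0). The genes named are those of largest fold enrichment among all of the set, with an AMG510 peak, with an E-box and with a DMSO promoter peak at the gene, those at the edges of the selection, and the peaks at genes of the lists. The regions and gene lists were chosen with earlier results of these data known, so counts over them are descriptions. No expression was measured. What AMG510 inhibits is not reported here.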

Additional observations from a re-analysis of the deposited data

How the results depend on the processing

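Both differences between trametinib promoter peaks without and with a DMSO peak kept their sign and an interval clear of 0 under every alternative run. The E-box difference ranged from −27.6 points (CACGCG counted as well) to −9.89 (50 bp either side of the summit) over 14 alternatives, and the AMG510 difference from −61.2 (score above 60) to −37.5 (within bins of fold enrichment) over 12. The alternatives with the summit within 200 bp of a TSS and with the mitochondrial chromosome kept were chosen after seeing the data, and the latter gave 829 peaks. The number of peaks was 202 with a fold above 5 and 65 with a score above 60, because fewer trametinib peaks pass. The share of peaks with a DMSO promoter peak at the same gene, 30.6%, was 22.4% when a DMSO peak up to 200 bp away counted as overlapping and 8.37% at up to 1 kb. It was 23.3% with a fold above 5, 24.6% with a score above 60, 22.7% with a TSS within 500 bp and 25.5% with canonical transcripts only. Counts in the 14 lists moved by over 1.5 times in 17 of 42 recounts, 12 of them with a fold above 5. No paired analysis was possible because no group has a second library. The peaks rest on a median of 13 tags. A call needed 8 tags at the genome-wide background, but the local background was higher at most of the peaks, so 8 is a lower limit there. No setting with another depth was run.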
